A study of Mus musculus with 13 samples.

Results

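TRAJ15 is a joining (J) gene segment of the mouse TCRα locus. It was chosen by its share of functional clonotypes, the highest of all J genes in the mean of 13 samples, so that share is given here as a description and is not tested. A clonotype is an entry of the deposited tables with its own V gene, J gene, CDR3 nucleotide sequence and count, where CDR3 is the hypervariable loop that spans the V-to-J junction. The members were all clonotypes with TRAJ15 as their J gene, 4917 of 90369. Of these, 4461 were functional, with an in-frame CDR3 and no stop codon, 438 were out of frame and 18 held a stop codon in frame.

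The tables describe the TCRα transcripts of "redeemed" regulatory T (Treg) cells from C57BL/6 male mice with the genotype Foxp3LSL/y Cd4creERT2. In these mice a loxP-flanked cassette with a Thy1.1 marker blocks the only copy of Foxp3, and a Cre recombinase under control of the Cd4 locus removes it once 4-hydroxytamoxifen (4-OHT) is given. Every mouse had a single dose of 4-OHT on postnatal day 14, and the cells that had regained Foxp3 (TCRβ+CD4+GFP+Thy1.1-) were sorted from pooled spleen and lymph node. Samples were taken after 1.5 months (n = 2, age 8 weeks), 3 months (n = 4, age 3.5 months), 5 months (n = 2, age 5.5 months) and 7 months (n = 5, age 7.5 months). All groups share the genotype and the treatment, each sample is 1 library, and no untreated group was analysed here. The labels do not say that replicates came from separate mice, so p-values measure only the spread between these samples.

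TCRα genes are assembled in thymocytes by joining a V segment to a J segment. Enzymes trim the cut ends, and terminal deoxynucleotidyl transferase may add bases that no segment encodes, so the junction differs from cell to cell while the outer part of CDR3 stays germline. The TCRα locus can rearrange again after a first attempt, with V segments nearer the 5′ end of the V cluster joining J segments nearer the 3′ end of the J cluster. Junctions that are easy to make recur in many individuals and are called public.

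TRAJ15 (ENSMUSG00000076914.1) is annotated by GENCODE M21 at chr14:54204422-54204481 of GRCm38, on the + strand, as a segment of 60 bases. The germline sequence is shown because every trimming value and the variant described next are read against it. Capitals mark the 29 bases that lie within CDR3.

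TRAJ15: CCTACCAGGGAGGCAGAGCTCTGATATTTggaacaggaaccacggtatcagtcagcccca

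Before any comparison, a large subset of TRAJ15 clonotypes stood apart at a single base. In 1729 of the 4461 functional clonotypes (38.8%) the base at position 20 of the segment, counted from 1 at its 5′ end, was read as G in place of the germline T (T20G). This base lies at position 54204441 of chromosome 14, in a codon for alanine that reads GCT in the germline and GCG with the substitution, so the amino-acid sequence is the same. Of the other functional clonotypes, 2729 had the germline T and 3 had another base. T20G clonotypes were small, with a median of 7 counts against 67 for those with the germline base, and they held 6.06% of the functional TRAJ15 counts. Elsewhere in the last 12 CDR3 bases of the J segment, no position was the single mismatch in more than 15 clonotypes.

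Most T20G clonotypes had a larger partner in the same sample with a CDR3 identical at every other base. Such a partner was found for 1585 of the 1729 (91.7%), and it had the same V gene in 1376. The ratio of the variant's counts to its partner's had a median of 0.0798 with quartiles of 0.0660 and 0.1, and its lowest value was 0.0506. In the upstream correction a clonotype 1 mismatch from a larger one is removed at a ratio under 0.05. The variant was at least as large as its partner in 3 pairs. T20G variants without a partner had a median of 1 count. The larger a TRAJ15 clonotype was, the more often a T20G partner was present: in 1.55% of 453 clonotypes with 1 to 3 counts, in 67.6% of 1056 with 31 to 100 counts, and in all 25 above 1000 counts. At a ratio of 0.0798, a clonotype of 1 to 3 counts would have a partner under 1 count. The low end of this rise is therefore fixed by whole counts.

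**Figure D1:**
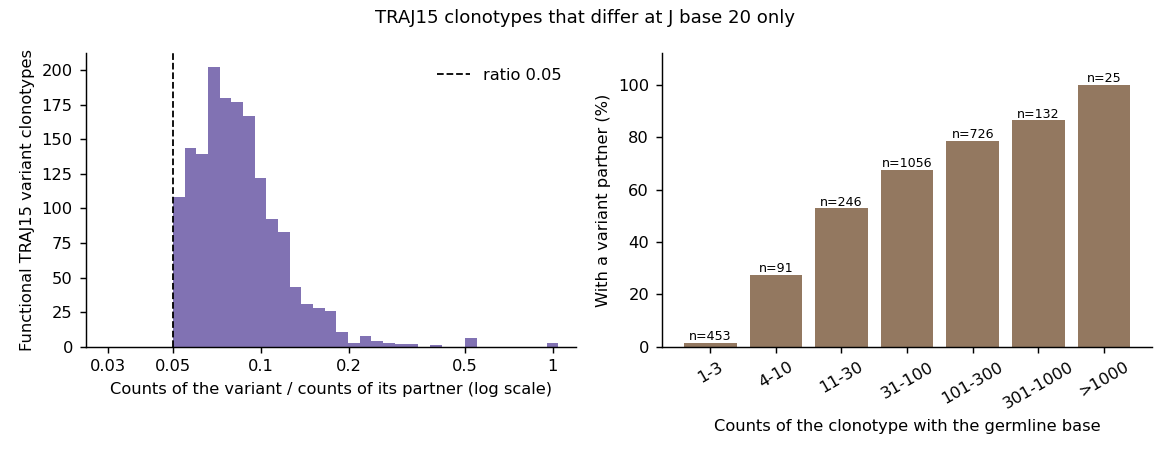
Left, number of functional TRAJ15 clonotypes with the T20G base by the ratio of their counts to those of the partner that differs only there (log scale, 1585 pairs of 13 samples). The ratios start just above the dashed line at 0.05. Right, percent of clonotypes with the germline base that had such a partner, by their own counts (n above each bar), rising from 1.55% to 100%. The smallest clonotypes have too few counts to show a partner at the median ratio.

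The largest TRAJ15 clonotype of each time point had a T20G partner. They are shown with the base at position 20 of the segment in capitals, because each pair is otherwise identical. At 7 months, replicate 3 held the largest of all, a TRAV3-1 clonotype with 11001 counts whose T20G partner had 807 counts. At 3 months, in replicate 4, a TRAV3-4 clonotype with 5826 counts stood beside a T20G partner with 439 counts.

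7 months, germline base: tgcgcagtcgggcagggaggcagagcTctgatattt
7 months, T20G: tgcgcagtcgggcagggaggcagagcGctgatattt
3 months, germline base: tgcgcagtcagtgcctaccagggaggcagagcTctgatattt
3 months, T20G: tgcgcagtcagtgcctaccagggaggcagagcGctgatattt

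T20G was present in every sample at a similar level. It was carried by 35.5% to 45.8% of a sample's functional TRAJ15 clonotypes (median 38.2%) and by 4.75% to 7.89% of their counts. The share of counts was 6.06% and 5.41% at 1.5 months, 7.46%, 6.68%, 7.89% and 6.51% at 3 months, 5.38% and 4.92% at 5 months, and 4.75%, 5.28%, 6.06%, 5.19% and 5.45% at 7 months. The 4 samples at 3 months lay above all others, a pattern noticed after the values were seen and not tested. Among out-of-frame TRAJ15 clonotypes, which encode no receptor, 151 of 438 (34.5%) carried T20G, with 6.69% of the counts and a median ratio to the partner of 0.0783.

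Single-base variants of the J end were then counted for all 43 J genes with at least 20 functional clonotypes per sample, as clonotypes with exactly 1 mismatch to the germline in their last 16 bases, lying in the last 12. TRAJ15 had 1720 of them (38.6%), and the median of the other J genes was 1.42%. Only TRAJ13 (45.3%, mostly T15G), TRAJ21 (38.2%, mostly T16G), TRAJ35 (33.3%, mostly T24G) and TRAJ32 (12.2%, mostly T28G) also exceeded 10%. Counted from the CDR3 end, these bases were the 12th, 11th, 8th and 8th, and that of T20G the 10th. T-to-G was also the most frequent change in some J genes below 10%, such as TRAJ11 (T28G, 3.88%), and not in others, such as TRAJ28 (G24T, 0.529%). Because a variant and its partner count as 2 clonotypes, the clonotype shares, tests over time, V families, junction measures and median clone sizes below are given as deposited and again without these variants for every J gene. The count share in each sample, V gene names, largest clonotypes, V positions, similarity between J genes, length classes, loop endings and share of non-functional clonotypes are given as deposited only. The cause of the variants was not tested.

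**Figure D2:**
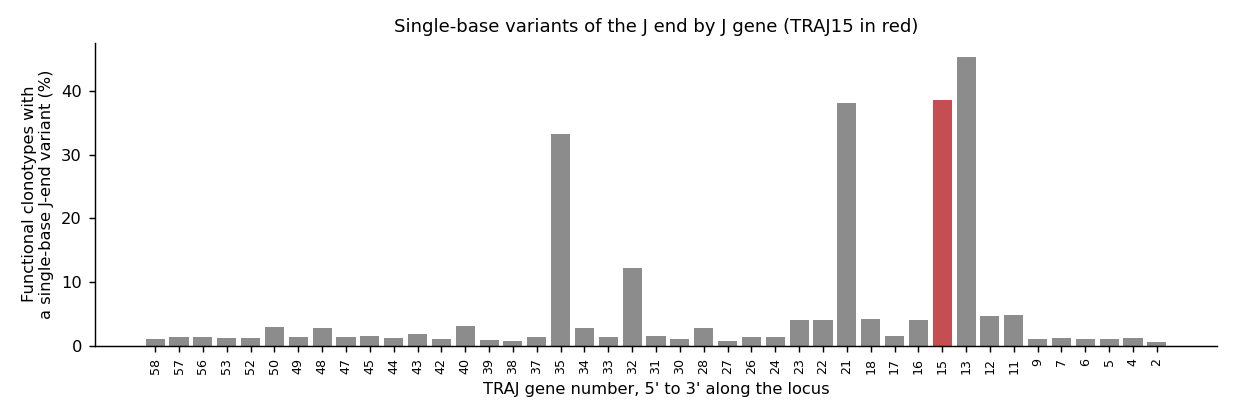
Percent of functional clonotypes of each of 43 J genes, in their order along the locus, that differ from the germline J end by a single base, over all 13 samples. TRAJ15 (red, 38.6%), TRAJ13, TRAJ21, TRAJ35 and TRAJ32 exceed 10%, and the median of the genes other than TRAJ15 is 1.42%.

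As deposited, TRAJ15 made up 5.71% ± 0.594 (SD, n = 13) of functional clonotypes. It was first among J genes in 8 of 13 samples, ahead of TRAJ21 (5.44%) and TRAJ31 (5.43%) in the mean. By sample its share was 5.82% and 5.08% at 1.5 months, 4.70%, 6.29%, 7.07% and 5.82% at 3 months, 5.96% and 5.85% at 5 months, and 5.93%, 5.19%, 5.41%, 5.36% and 5.68% at 7 months. The lowest and the highest sample were both taken at 3 months. The 2 samples at 5 months lay above both at 1.5 months, and all other pairs of time points overlapped.

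Without single-base J-end variants, TRAJ15 was no longer the most used J gene. Its mean share became 3.84% ± 0.307 (SD, n = 13), seventh of the 43 J genes behind TRAJ31 (5.85%), TRAJ23, TRAJ27, TRAJ22, TRAJ12 and TRAJ37, and it was first in 0 of 13 samples, with ranks from 4 to 10. When T20G clonotypes were left out and those of other J genes were kept, TRAJ15 ranked ninth. The name "most used J gene" therefore holds for the clonotypes as deposited and not for those with a germline J end. Its share of functional counts, variants included, was 4.40% ± 0.920 (SD, n = 13), also seventh.

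The count share differed more between samples than the clonotype share. It was 3.90% and 3.76% at 1.5 months, 2.85%, 5.20%, 5.38% and 5.43% at 3 months, 4.14% and 4.41% at 5 months, and 4.09%, 4.79%, 5.94%, 3.09% and 4.23% at 7 months. Replicate 1 at 3 months lay far below the other 3 samples of its group. In replicate 3 at 7 months, the sample with the highest share, a single clonotype supplied 38.5% of the TRAJ15 counts.

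**Figure D3:**
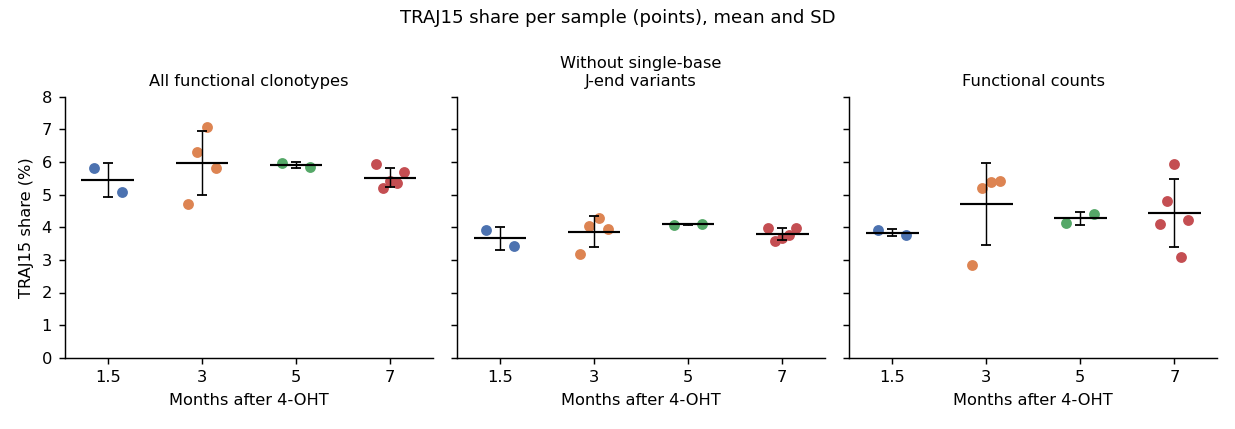
TRAJ15 share per sample (points) by months after 4-OHT, as a percent of all functional clonotypes, of functional clonotypes without single-base J-end variants, and of functional counts; lines are means and error bars the SD (n = 2, 4, 2 and 5). Means over 13 samples are 5.71%, 3.84% and 4.40%, and in all panels both 5-month samples lie above both 1.5-month samples.

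No change of TRAJ15 usage with time after 4-OHT passed a test. In edgeR's quasi-likelihood test on clonotype numbers of 43 J genes, TRAJ15 changed by 0.14 on the log2 scale from 1.5 to 3 months (SE 0.10, adjusted p = 0.957). The log2 change was 0.12 from 1.5 to 5 months (SE 0.12, adjusted p = 0.928), 0.016 from 1.5 to 7 months (SE 0.099, adjusted p = 0.978) and -0.12 from 3 to 7 months (SE 0.081, adjusted p = 0.801). The background was 0% of J genes called in each of the 4 comparisons. At an unadjusted p under 0.05 there were 0, 0, 0 and 2 J genes in the same order, and DESeq2 called 0 in each. Of the 13 tested J genes among TRAJ2 to TRAJ20, the 3′ neighbourhood of TRAJ15, 0 passed the adjusted threshold in any comparison. Their median log2 change from 1.5 months was 0.065 to 3 months, 0.12 to 5 months and 0.066 to 7 months. For all J genes it was 0.033, -0.0041 and 0.0028 in the same order. The estimates moved with single samples: without replicate 1 or 2 at 1.5 months the change to 3 months was 0.24 or 0.056 and that to 5 months 0.22 or 0.037, and without replicate 1 or 3 at 3 months the change to 3 months was 0.24 or 0.036 and that from 3 to 7 months -0.23 or -0.021. At 10 or more counts the changes from 1.5 months were 0.22, 0.24 and 0.11 at 3, 5 and 7 months, and with counts summed per J gene the changes to 3 and 7 months were 0.29 and 0.22. None of 25 alternatives, single samples left out included, brought TRAJ15 past the threshold in any of the 4 comparisons. Without J-end variants the 4 TRAJ15 estimates were 0.059, 0.15, 0.044 and -0.015.

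For the count share, too, no difference between time points passed. Against the 1.5-month mean of 3.83%, it was higher by 0.884 percentage points at 3 months (p = 0.596), 0.444 points at 5 months (p = 0.937) and 0.597 points at 7 months (p = 0.795), by exact permutation of all samples, two-sided and corrected for the 3 comparisons, with a pooled SD of 1.00 points. Without replicate 1 at 3 months the 3-month difference was 1.51 points (exact permutation p = 0.133), and the 7-month difference was 0.220 points without replicate 3 and 0.931 points without replicate 4 of that group. With only the pair of groups compared, the exact p was 0.400 at 3 months, 0.333 at 5 months and 0.476 at 7 months, where the smallest possible is 0.0667, 0.333 and 0.0476. At 5 months it is thus the smallest possible, with both samples above both at 1.5 months. Without J-end variants the 3 differences were 0.792, 0.458 and 0.588 points (exact permutation p from 0.627 to 0.918). Pearson's r with months, n = 13, was -0.144 for the clonotype share and 0.0717 for the count share. Without J-end variants r was 0.0620 for the clonotype share, the opposite direction, and 0.0984 for the count share, and at 10 or more counts it was -0.0176 for the clonotype share. Spearman's rho was -0.0719 and 0.158. Over the 6 TRAJ15 trends tested, with 100000 permutations each, the Benjamini-Hochberg adjusted permutation p was 0.812 for every r and 0.815 for every rho.

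The other 4 trends concerned the form of the junctions. Pearson's r was -0.174 for the mean number of inserted bases, -0.0725 for the mean CDR3 length, 0.330 for the mean number of J bases removed and 0.294 for the share of the largest clonotype in TRAJ15 counts. Spearman's rho was -0.187, -0.106, 0.337 and 0.305 in the same order. Single samples moved these r values: inserted bases gave -0.514 without replicate 2 at 1.5 months, J bases removed gave 0.614 without replicate 5 at 7 months and 0.199 without replicate 1 at 1.5 months, and the largest clonotype gave 0.0323 without replicate 3 at 7 months. When the 2 samples whose month lay farthest from the median, both taken at 1.5 months, were left out, r was -0.660 for inserted bases (unadjusted permutation p = 0.0334). That value covers 3 to 7 months only. Without J-end variants, r over all samples was -0.271, -0.202, 0.412 and 0.288 for these 4 measures (adjusted permutation p = 0.749 for each). For the other 5 trends r without the 2 samples lay between -0.354 and 0.248.

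TRAJ15 was joined to 94 V gene names of 18 families. The family that joined it most was TRAV7, followed by TRAV14, TRAV12 and TRAV6. By number of clonotypes, the 5 most used single names were TRAV7D-2 (8.69% of functional TRAJ15 clonotypes, mean of 13 samples), TRAV14D-1 (6.93%), TRAV4D-4 (5.06%), TRAV12-1 (4.98%) and TRAV12D-2 (4.37%). Mouse V genes exist in near-identical copies between which reads can be split, so families were compared.

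Within each sample, the share of each V family among TRAJ15 clonotypes was compared with its share among clonotypes of all other J genes, for 645 pairs of a J gene and a V family. TRAV7 was the family with a significantly higher share at TRAJ15. Its share ran from 17.6% to 27.7% (median 23.0%) with TRAJ15 and from 17.3% to 19.5% (median 18.8%) with the others, and it was higher in 11 of 13 samples. The mean difference was 3.72 ± 3.29 percentage points (SD, n = 13, two-sided exact sign-flip permutation test, adjusted p = 0.00945). Names within TRAV7 went both ways, and none was tested singly. TRAV7D-2 took 8.69% with TRAJ15 against 4.95% with other J genes, and TRAV7N-6 1.83% against 0.898%. TRAV7-4 took 4.38% against 5.16%, and TRAV7-5 1.21% against 1.96%. TRAV12 (13.3% against 11.4%, adjusted p = 0.0659) and TRAV14 (16.9% against 14.9%, adjusted p = 0.0515, same exact test, n = 13) did not pass. Over all pairs, 15.3% were called higher and 24.8% lower. At TRAJ15, 1 of 15 families was called higher, a smaller share than that background, and 4 of 15 were called lower, a share near it.

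The families called lower included both single-gene families among those tested, which lie at the end of the V cluster nearest to the J segments. TRAV21 (chr14:53875984-53876752) was joined to TRAJ15 in 0 of 4461 functional clonotypes, whereas it held 0.798% to 1.41% of the clonotypes of other J genes (adjusted p = 0.00216, exact test, n = 13). It was absent, too, from the 2741 TRAJ15 clonotypes left without J-end variants. Counted as independent, the 4461 would allow a share of up to 0.0672%. Most J-end variants repeat a partner of the same sample, so the real limit is higher. TRAV17 (chr14:53806639-53807115) was found in 11 TRAJ15 clonotypes, a mean of 0.231% against 1.06% (adjusted p = 0.00321, exact test, n = 13). Its share was 0 in most samples and overlapped the range of the other J genes in replicate 3 at 3 months and replicate 5 at 7 months.

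TRAV4 and TRAV13, whose genes are spread over the cluster, were also lower as families. Their single names went both ways. TRAV4-4-DV10 (start at chr14:53683647) took 0.556% against 3.64% with other J genes, and TRAV4D-4 (start at chr14:52990866) 5.06% against 3.80%. TRAV13-1 (start at chr14:53545014) took 1.25% against 2.21%, and TRAV13D-2 (start at chr14:52942764) 2.57% against 2.17%. Single names were not tested. TRAV4 ranged from 4.67% to 11.8% (median 8.01%) with TRAJ15 against 9.21% to 11.3% (median 9.92%) with the others, lower in 11 of 13 samples (difference -2.26 ± 1.98 points, SD, adjusted p = 0.00700, exact test, n = 13). Weighted by counts the TRAV4 difference was -4.25 points (adjusted p = 0.0298), and out of frame it was -2.73 points and did not pass (adjusted p = 0.322, both exact tests, n = 13). TRAV13 took a mean of 5.68% against 7.32% (difference -1.64 ± 2.11 points, SD, adjusted p = 0.0419, exact test, n = 13), and its call was lost when any 1 of 9 samples was left out. The 4 without which it held (adjusted p from 0.0286) were replicate 1 at 1.5 months, replicate 2 at 3 months, replicate 1 at 5 months and replicate 4 at 7 months. The TRAV13 call was also lost at 2 or more counts, at 10 or more counts, weighted by counts, in clonotypes of 1 sample, out of frame and against TRAJ2 to TRAJ20 (adjusted p from 0.0520 to 1). Both families overlapped between TRAJ15 and the other J genes.

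Without J-end variants, TRAV7, TRAV4, TRAV13, TRAV17 and TRAV21 kept their direction and their calls, where 16% of all pairs were called higher and 24.8% lower. TRAV12 (difference 1.92 points, adjusted p = 0.0466, exact test, n = 13) and TRAV5 (-0.908 points, adjusted p = 0.0497, exact test, n = 13) were called as well. Against TRAJ2 to TRAJ20 alone, TRAV7 differed by 0.845 points (adjusted p = 0.547), TRAV17 by 0.084 points (adjusted p = 0.650) and TRAV21 by -0.042 points (adjusted p = 0.131), so these differences were not detected against J genes of the same end of the cluster. TRAV4 was still lower there (-1.80 points, adjusted p = 0.0216, exact test, n = 13). In that comparison 2 families were called lower and 1, not TRAV7, was called higher. The TRAV7 call was also lost when weighted by counts (2.20 points, adjusted p = 0.373) and in clonotypes of 1 sample (2.16 points, adjusted p = 0.0900). Among out-of-frame clonotypes the TRAV7 share was lower with TRAJ15, by 2.27 points (difference -2.27, adjusted p = 0.355, exact test, n = 13).

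**Figure D4:**
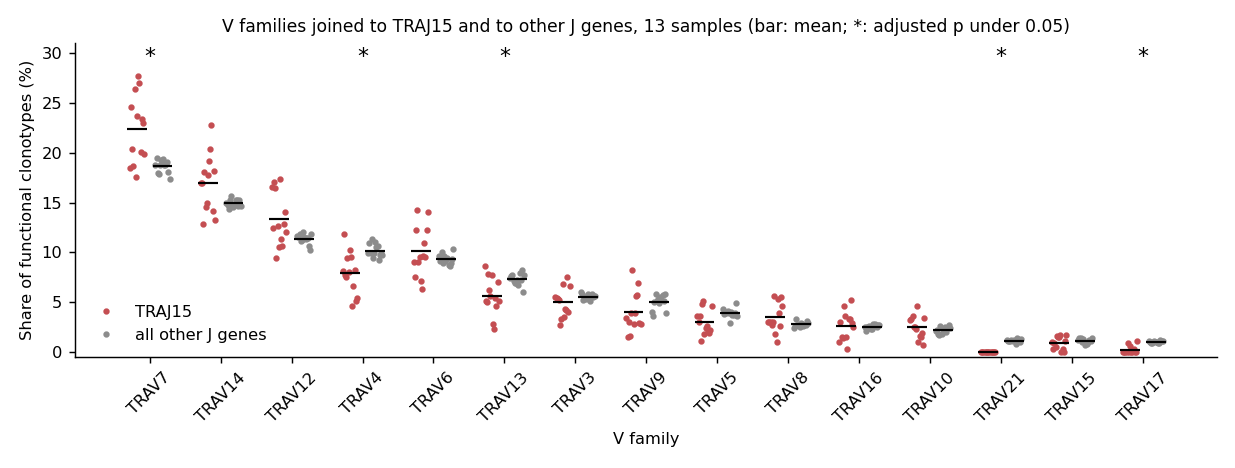
Share of 15 V families among functional TRAJ15 clonotypes (red) and among those of all other J genes (grey), as a percent per sample (points, 13 samples) with the mean (bar). An asterisk marks an adjusted p under 0.05: TRAV7 lies higher with TRAJ15, and TRAV4, TRAV13, TRAV21 and TRAV17 lie lower.

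The position of the V partners on the chromosome followed the same order. The mean start of V genes joined to TRAJ15 was 53.12 Mb on chromosome 14, against 53.27 Mb for other J genes, and it was lower in 13 of 13 samples. Across the 43 J genes, the J start and the mean V start had a Spearman correlation of -0.975. These points share the same libraries and the V genes of the same tables, so the value is a description. TRAJ15 had the eighth lowest mean V start.

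By V family profile, the genes most like TRAJ15 were TRAJ13, TRAJ26 and TRAJ23, with total variation distances of 0.0386, 0.0535 and 0.0702, where 0 is an identical profile and 1 no overlap. TRAJ13 is also among its nearest tested neighbours on the chromosome, which are TRAJ17 and TRAJ16 on the 5′ side and TRAJ13 and TRAJ12 on the 3′ side. By clonotype share, TRAJ37, TRAJ7 and TRAJ30 followed TRAJ15 most closely over the 13 samples (Spearman's rho 0.571, 0.401 and 0.379), and the shares in a sample sum to a fixed total.

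TRAJ15 junctions lost more J bases than those of other J genes. From the deposited J start positions, a mean of 2.58 to 3.17 germline bases per sample (median 2.95) were missing at the TRAJ15 end, against 2.23 to 2.46 (median 2.37) for the other J genes, and the ranges do not overlap. The mean difference was 0.548 ± 0.2004 bases (SD, higher in 13 of 13 samples, adjusted p = 3.75e-04, exact sign-flip test, n = 13), where the unadjusted p of 2.44e-04 was the smallest that sign flips of 13 samples give. Of the 43 J genes, 39.5% were called higher and 39.5% lower, so a difference in this measure is common among J genes. In 440 TRAJ15 clonotypes (9.86%) the deposited J start lay before the germline J end, and these entered the mean as negative numbers of missing bases. Without J-end variants the difference was 0.492 bases, against TRAJ2 to TRAJ20 alone 0.951 and weighted by counts 0.832, each past the threshold. Among out-of-frame clonotypes it was 0.384 bases and did not pass (adjusted p = 0.202, exact test, n = 13). Counting exact matches to the germline from the CDR3 end, which leaves out J-end variants, gave 3.48 against 3.26 bases, again higher in 13 of 13 samples (difference 0.227, adjusted p = 3.62e-04, exact test, n = 13), with 41.9% of J genes called higher and 48.8% lower.

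The exact match gives the number of bases lost in each clonotype, after 1791 functional clonotypes whose J end was not read as germline were left out. The whole germline end was retained in 349 functional TRAJ15 clonotypes, and the loss of 4 bases was the most frequent class with 520, or 19.6% ± 2.59 (SD, n = 13) per sample. Losses of 1, 2, 3 and 5 bases were found in 322, 305, 348 and 382 clonotypes, and 7 bases (218) were lost more often than 6 (115). Out-of-frame clonotypes had the same most frequent class, 19.7% with 4 bases lost. Their mean loss was greater, 4.42 ± 0.680 bases against 3.48 ± 0.163 in functional clonotypes (SD, lower in functional in 12 of 13 samples, adjusted p over 6 measures = 0.00293, exact sign-flip test, n = 13). A loss of 16 bases was found in 11 out-of-frame clonotypes, a mean of 4.64% per sample, and in 1 functional clonotype. This class raises the out-of-frame mean. With the deposited J start the means over the same clonotypes were 3.01 and 2.89 (adjusted p = 0.591, exact test, n = 13), so the difference in mean loss depends on how the J end is found. Inserted bases by exact match averaged 4.01 out of frame and 2.98 in functional clonotypes (adjusted p = 0.00293). With the deposited ends they averaged 2.21 and 2.06 (adjusted p = 0.341). Neither V bases kept (adjusted p = 0.866) nor the share without insertions (adjusted p = 0.298) passed by exact match (all exact sign-flip tests, n = 13).

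**Figure D5:**
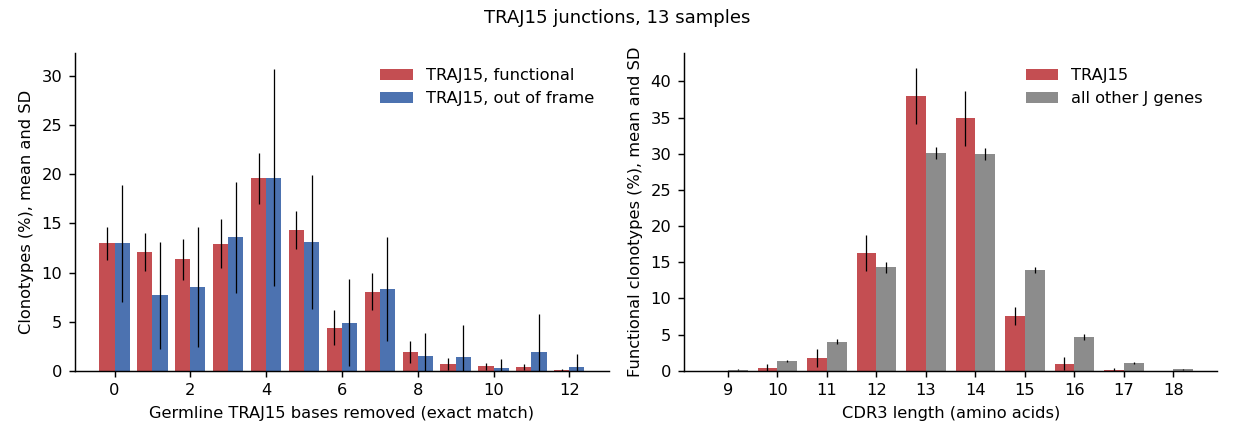
Left, germline TRAJ15 bases removed at the J end by exact match, as a percent of functional (red) and out-of-frame (blue) TRAJ15 clonotypes. Losses above 12 bases are not drawn. Right, CDR3 length in amino acids of functional TRAJ15 clonotypes (red) and of all other J genes (grey). Bars are means and error bars the SD of 13 samples; a loss of 4 bases and a length of 13 residues are the most frequent TRAJ15 classes.

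CDR3 loops with TRAJ15 were shorter. Their mean length was 13.21 to 13.43 amino acids per sample (median 13.34), against 13.47 to 13.55 (median 13.50) for other J genes, and the ranges do not overlap. The difference was -0.177 ± 0.0634 residues (SD, lower in 13 of 13 samples, adjusted p = 3.00e-04, exact sign-flip test, n = 13). Over all J genes 39.5% were called shorter and 55.8% longer. By length class, loops of 13 residues made up 37.9% of its clonotypes against 30.1% elsewhere, loops of 15 residues 7.59% against 14.0%, and loops of 16 residues 0.998% against 4.70%. The other J genes pool genes of mean lengths from 12.42 (TRAJ31) to 15.31 residues (TRAJ2), so these classes do not compare the spread of TRAJ15 with that of a single J gene. Weighted by counts the length difference was -0.269 residues (adjusted p = 0.00127, exact test, n = 13). Without J-end variants it was -0.196 residues, with the same shares of J genes called.

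Inserted bases, those between the V and J ends, gave no firm difference. TRAJ15 had a mean of 2.06 ± 0.175 and the other J genes 2.16 ± 0.0542 (SD, difference -0.105, adjusted p = 0.0990, exact test, n = 13), while 34.9% of J genes were called lower and 20.9% higher. Exact matching gave a difference of -0.201 that passed (adjusted p = 0.0269, exact test, n = 13), where 30.2% of J genes were called lower and 14% higher. Without J-end variants the difference was -0.0864 (adjusted p = 0.150, exact test, n = 13), with 32.6% of J genes called lower. It was -0.0240 weighted by counts, -0.0611 in clonotypes of 1 sample, -0.426 out of frame and 0.0437, the opposite direction, against TRAJ2 to TRAJ20 alone, where no value passed (adjusted p from 0.0769 to 0.895). Junctions without inserted bases made up 28.9% ± 2.80 of TRAJ15 clonotypes and 31.1% ± 0.988 of the others (SD, lower in 10 of 13 samples, adjusted p = 0.0344, exact test, n = 13). These levels depend on how the ends are found: the deposited V and J ends overlapped in 18.2% of TRAJ15 clonotypes and 21.9% of the others, counted as no insertion, and exact matching gave shares of 11.8% and 12.9% and means of 2.98 and 3.18 inserted bases. Of all J genes, 27.9% were called lower in this share and 37.2% higher. The call held without J-end variants (difference -2.21 points, adjusted p = 0.0196, exact test, n = 13) and against TRAJ2 to TRAJ20 alone (-4.83 points, adjusted p = 0.00131, exact test, n = 13). It was lost with exact matching (adjusted p = 0.157, exact test, n = 13), where 11.6% of J genes were called lower and 23.3% higher. It was lost, too, at 10 or more counts (-1.35 points, adjusted p = 0.275), weighted by counts (-2.81 points, adjusted p = 0.417) and out of frame, where the direction turned (0.240 points, adjusted p = 0.957, all exact tests, n = 13). Of single samples, it was lost without replicate 1 at 1.5 months, replicate 3 or 4 at 3 months, replicate 1 or 2 at 5 months, or replicate 1 at 7 months (adjusted p from 0.0517 to 0.0662).

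At the V end, TRAJ15 junctions kept a mean of 12.36 germline V bases against 12.25 with other J genes, which did not pass (adjusted p = 0.179, exact test, n = 13). Of all J genes, 23.3% were called higher and 27.9% lower. By exact match the difference was 0.165 bases and passed (higher in 11 of 13 samples, adjusted p = 0.0161, exact test, n = 13), with 23.3% of J genes called higher and 25.6% lower. The difference was -0.0215 weighted by counts, 0.0474 in clonotypes of 1 sample and 0.458 out of frame, where no value passed (adjusted p from 0.360 to 0.946). Without J-end variants it was 0.0861 bases (adjusted p = 0.265, exact test, n = 13), with 23.3% called higher and 30.2% lower.

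Nearly all TRAJ15 loops ended alike. GGRALIF closed 4292 of 4461 functional loops (96.2%), QGGRALIF 3680 (82.5%) and YQGGRALIF, the longest stretch of whole germline codons, 1624 (36.4%). Per sample QGGRALIF closed 78.1% to 86.7%. The residue before QGGRALIF was tyrosine, the germline residue, in 44.0% ± 2.40 (SD, n = 13). Glycine followed with 441 clonotypes, then aspartate with 7.59% ± 1.65, arginine with 6.10% ± 1.87 and asparagine with 5.10% ± 1.69.

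The 4461 functional clonotypes encoded 1434 distinct TRAJ15 amino-acid sequences, of which 992 (69.2%) were found in 1 sample, against 71.2% for the sequences of all other J genes. There were 48 in 7 or more samples (3.35% against 2.49%), and 47 of those 48 ended in QGGRALIF. In an average sample, 61.1% ± 4.60 (SD, n = 13) of the distinct TRAJ15 sequences occurred in another sample, against 57.4% ± 3.02 of the others, higher in 10 of 13 samples. The mean difference was 3.67 ± 4.57 percentage points (SD, n = 13), 3.55 points without J-end variants, 6.20 points at 10 or more counts and 0.212 points by nucleotide sequence. TRAJ15 ranked eighth of 43 J genes by this share. Since sharing links all samples to each other, no test was made. Sequences in 7 or more samples had a median length of 13 residues and a mean of 1.68 inserted bases by exact match, against 14 residues and 4.37 bases for those in a single sample, and they held 15.8% to 35.5% of a sample's TRAJ15 counts.

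Among them, 3 sequences occurred in all 13 samples, or 0.209% of the distinct TRAJ15 sequences, against 62 (0.155%) of other J genes. In exactly 12 samples the shares were 0.0697% and 0.157%, the opposite order. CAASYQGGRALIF took 0.0186% to 0.282% of functional counts (mean 0.113% ± 0.0838, SD, n = 13) and was encoded by 24 nucleotide sequences with V genes of 5 families, or 12 without J-end variants. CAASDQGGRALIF took 0.0270% to 0.240% (mean 0.110% ± 0.0704), with 9 nucleotide sequences, or 5 without variants. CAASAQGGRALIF took 0.00684% to 0.0730% (mean 0.0419% ± 0.0205), with 11 nucleotide sequences, or 5 without variants. All 3 differ at a single residue, the one before QGGRALIF.

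The most widespread nucleotide sequences are shown because they tell how little was added at these junctions. Capitals mark the bases that match germline TRAJ15 without a break from the CDR3 end. The TRAV14 form of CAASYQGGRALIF, in 9 samples, lost 2 J bases and needed no inserted base. A TRAV7 form of the same protein sequence, in 8 samples, lost 1 J base and likewise needed none. The TRAV14 form of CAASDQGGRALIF occurred in 13 samples, lost 3 J bases and needed none. The TRAV14 form of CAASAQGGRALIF, also in 13 samples, lost 4 J bases and held 1 inserted base.

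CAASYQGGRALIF, TRAV14: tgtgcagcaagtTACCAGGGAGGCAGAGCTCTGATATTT
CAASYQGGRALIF, TRAV7: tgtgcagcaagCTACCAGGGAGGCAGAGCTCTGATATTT
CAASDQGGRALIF, TRAV14: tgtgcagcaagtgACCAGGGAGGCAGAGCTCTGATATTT
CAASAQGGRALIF, TRAV14: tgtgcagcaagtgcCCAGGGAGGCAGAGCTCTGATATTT

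The difference in clone size passed the test with the J-end variants and not without them. As deposited, the median TRAJ15 clonotype had 13 to 40 counts per sample (median 21), against 37 to 103 (median 52) for other J genes, lower in 13 of 13 samples. On the log2 scale the difference in medians was -1.38 ± 0.314 (SD, adjusted p = 0.00131, exact sign-flip test, n = 13), and 11.6% of J genes were called lower and 44.2% higher. At 10 or more counts the difference was -0.278 (adjusted p = 0.00175, exact test, n = 13). Without J-end variants it was 0.062 ± 0.171 (adjusted p = 0.339, same exact test, n = 13), higher in 8 of 13 samples, with 9.3% of J genes called higher and 11.6% lower, so TRAJ15 clonotypes with a germline J end were not detectably smaller than those of other J genes.

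The 10 largest TRAJ15 clonotypes held 20.3% to 55.4% of a sample's TRAJ15 counts (median 29.8%). Between 1 and 7 TRAJ15 clonotypes per sample (mean 4.08) exceeded 0.1% of functional counts, among 56 to 118 (mean 94.6) of all J genes. The largest of all was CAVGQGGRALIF with TRAV3-1, shown above, at 2.29% of functional counts (Wilson 95% interval 2.24% to 2.33%, counting error only) in replicate 3 at 7 months, and it was found in 0 other samples. It lost 5 J bases and held 3 inserted bases. The 3-month leader, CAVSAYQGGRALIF with TRAV3-4, made up 1.03% of functional counts in replicate 4, kept the whole J end and had no inserted base. The leaders of the remaining time points were smaller: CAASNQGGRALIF with TRAV7D-2 took 0.348% in replicate 1 at 5 months and recurred in 7 other samples, and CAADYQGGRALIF with TRAV4-4-DV10 took 0.183% in replicate 1 at 1.5 months.

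Non-functional clonotypes show TRAJ15 joins on which no receptor was selected. They made up 6.54% to 13.9% of TRAJ15 clonotypes per sample (median 9.09%), against 12.6% to 15.2% (median 13.1%) for other J genes, with overlap only in replicate 1 at 5 months, the highest TRAJ15 value. The pooled value is raised by a single gene, TRAJ32, which held 16.6% of out-of-frame clonotypes and 2.47% of functional ones (means of 13 samples). TRAJ32 is likewise part of the other J genes in the out-of-frame comparisons above. TRAJ15 took 3.90% ± 1.18 (SD, n = 13) of out-of-frame clonotypes, sixth among J genes, or 3.02% ± 0.930, rank 11, without J-end variants. The largest was an out-of-frame TRAV3D-3 join with 3177 counts in replicate 5 at 7 months, or 0.558% of that sample's counts. Of 441 distinct non-functional nucleotide clonotypes, 426 were found in 1 sample and the remainder in 2.

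All 13 samples entered each test. Total counts ran from 509818 to 936831 per sample and functional counts from 476957 to 882128, so that 3 counts equal 3.40e-04% to 6.29e-04% of functional counts. That value is a scale only: in the main results a clonotype or sequence was taken as present in a sample at any count. Pairs of libraries shared a median of 12 TRAJ15 nucleotide clonotypes and at most 29, between replicate 4 at 3 months and replicate 1 at 5 months (7.49% and 9.03% of their TRAJ15 clonotypes). TRAJ15 clonotypes whose counts in a second library were 100 times higher or more numbered 77 (1.73% of functional TRAJ15 clonotypes, 0.0312% of their counts), against 3.21% of functional clonotypes over all J genes. The T20G clonotypes are included in the 1.73%. Of their distinct nucleotide clonotypes 91.2% were found in 1 sample and so have no copy in a second library, which lowers that share. The joins that mark invariant NKT cells, TRAV11 with TRAJ18, took 0.0384% of functional counts over all samples.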

How the data were processed

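TCRα-seq tables of 13 samples were analysed. The authors amplified Trac cDNA by 5′ RACE, aligned MiSeq reads and assembled clonotypes with MiXCR 3.0.13, and used VDJtools 1.2.1 to discard the smaller of any pair of clonotypes up to 2 mismatches apart if its counts were under 0.05 of the larger's at 1 mismatch, with a lower limit at 2. The deposited values are raw counts per clonotype (cDNA molecules were barcoded, but whether reads or molecules were counted is not stated), each clonotype's fraction of its sample, checked against the counts, and deposited positions of the V and J ends. Near-identical clonotypes above this ratio remain in the tables, and every distinct sequence counts as a clonotype.

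The deposited tables still held non-functional clonotypes, which were set apart, and 109 clonotypes without an α J gene were left out. Usage was tested with edgeR 4.0.16 (filterByExpr, TMM, quasi-likelihood F test, 1 model over 4 time points, Benjamini-Hochberg over 43 J genes) in R 4.3.3, with DESeq2 1.42.0 as an alternative. Count shares used an exact permutation over all arrangements of the samples, and comparisons of TRAJ15 with other J genes an exact sign-flip of 13 within-sample differences, made for every J gene with a mean of at least 20 functional clonotypes and V families of at least 1%. Trends used 100000 permutations. Python 3.11.15, numpy 2.4.6, pandas 2.3.3, scipy 1.17.1 and matplotlib 3.10.9 were used, and the code was tested on simulated data. Germline segments and positions came from GENCODE M21 transcripts (GRCm38). J bases removed is the germline CDR3 part minus the bases from J start, and exact matching required at least 12 germline J bases. Functional totals ran from 476957 to 882128 counts, and intervals cover counting error only.

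TRAJ15, the gene lists and the tests were chosen with earlier results of these data known. J genes were named by share, chromosomal neighbourhood, correlation of shares and V profile, V families by the largest differences past an adjusted p of 0.05, and clonotypes by presence in 13 samples or by size. Alternatives were count minimums of 2 and 10, weighting by counts, clonotypes found in 1 sample, out-of-frame clonotypes, TRAJ2 to TRAJ20 as the other J genes, equal depth, other normalizations, removal of clonotypes 100 times more abundant elsewhere, a replicate block and each sample left out. Exact matching and the removal of single-base J-end variants were added after the data were seen.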

Additional observations from a re-analysis of the deposited data

Results flagged for a closer look

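The TRAJ15 share of functional counts in replicate 1 at 3 months, 2.85%, lay far from the other 3 samples of its group (5.20% to 5.43%) by Dixon's criterion. Of 24 groups of values scanned, 1 stood out in this way, and chance alone does so in about 1 of 20. In the same sample TRAJ15 had its lowest share of functional clonotypes, 4.70%, which was also its lowest without J-end variants, 3.18%.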

How the results depend on the processing

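The shorter CDR3 and the greater J trimming of TRAJ15 kept their direction under every alternative tried, and their calls under all but 1, J trimming among out-of-frame clonotypes (0.384 bases, adjusted p = 0.202). The removal of single-base J-end variants turned the difference in clonotype size to 0.0623, raised the V families called higher from 1 to 2 and turned the trend of clonotype share to 0.0620. With exact matching inserted bases (-0.201) and V bases kept (0.165) passed, and the share without insertions (-1.11 points) did not. That share was -1.35 points at 10 or more counts and -2.81 weighted by counts, neither past the threshold, and 0.240 points out of frame. Against TRAJ2 to TRAJ20 inserted bases differed by 0.0437, TRAV17 by 0.0839 points, and 2 families were lower. Weighting turned V bases kept to -0.0215. Families called higher were 2 at 10 or more counts and 0 when weighted, out of frame or in clonotypes of 1 sample. Out of frame, 2 were lower and TRAV7 differed by -2.27 points. At 10 or more counts the length trend was 0.0266, and at equal depth the 7-month usage change was -7.72e-04. The cause of these shifts was not tested.

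When each sample was left out in turn, inserted bases ranged from -0.132 to -0.0823 (passing without replicate 3 at 3 months or replicate 2 at 5 months), the share without insertions from -2.57 to -1.80 points and V bases kept from 0.0731 to 0.140 (passing without replicate 1 at 7 months). Families called higher ranged from 1 to 3, the latter without replicate 3 at 3 months, and were 2 without replicate 1 at 3 months or replicates 3 or 5 at 7 months. The 7-month usage change ranged from -0.0680 to 0.116, and the trends from -0.322 to 0.0116 for clonotype share, -0.111 to 0.246 for count share, -0.360 to 0.0694 for length, -0.514 to -0.0715 for inserted bases, 0.199 to 0.614 for J bases removed and 0.0323 to 0.413 for the largest clonotype. Usage changes ranged from 0.0363 to 0.243 at 3 months and 0.0370 to 0.221 at 5 months.

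Same-numbered samples share only a number: the correlation of their J usage deviations had a mean of 0.0890 (range -0.317 to 0.249, 14 pairs). In fits with a replicate block, the usage change from 1.5 months was 0.0795 to 3 months and -0.0569 to 7 months, and the trend of J bases removed was 0.733 (unadjusted permutation p = 0.0399, adjusted 0.240). The other trends were -0.220 for clonotype share, 0.0183 for count share, -0.112 for inserted bases, -0.379 for length and 0.316 for the largest clonotype. The count share then differed by 0.521 points at 3 months and 0.284 at 7 months. No call changed. The time comparisons rest on 2 samples at 1.5 and at 5 months, and TRAJ15 had 270 to 465 functional clonotypes per sample, which limits rare V partners.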
